A study of Mus musculus with 3 samples.

Results

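The caecum and the colon of the mouse embryo at E13.5, an age counted in days after mating, were compared gene by gene in their polyadenylated RNA, with 1 library of each. The caecum is the blind pouch that buds where the small and large intestine meet, and the colon is the tube that runs on from it. Both samples came from wild-type embryos of the strain labelled Bl6/C57, with no treatment, and a library of the presumptive ileum of the same strain, genotype and age gives a reference level. How many embryos gave each sample was not stated. Where 3 values stand in a row they are those of the caecum, colon and ileum, in that order, and a fold compares the caecum with the colon. The comparison covers all 33762 features of the deposited table, of which 17900 had at least 20 counts in the higher of the caecum and colon libraries and were compared. Hox genes and their Evx neighbours are in the counts of genes but are not described.

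The gut wall at this age consists of an epithelium of endodermal origin inside a layer of mesenchyme, which forms the smooth muscle and connective tissue. Most of the enteric nervous system comes from neural crest cells that enter the foregut and migrate toward the anal end. The colon is the last segment on that route. Growth of the caecal bud depends on an exchange of FGF, BMP and WNT signals between epithelium and mesenchyme in which the ligand Fgf10 of the caecal mesenchyme takes part.

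The caecum, colon and ileum libraries held 64439701, 50772855 and 50079617 counts. Each tissue has 2 deposited columns that come from 1 sample. Their mean squared difference was 0.458 times the counting variance in the caecum and 0.454 times in the colon, against 53.1 times between the tissues, so they were averaged and read as 1 library. No difference therefore has a replicate check, and no p-value is given. A fold is the ratio of counts scaled by TMM, and the brackets behind it give an exact 95% interval that covers counting error only. The scaling left the median gene at 0.01 in log2, caecum over colon. None of 14 housekeeping genes, 17 cell cycle genes and 12 stress genes was 2-fold apart, and the medians of these lists were -0.06, -0.18 and 0.05. The caecum library held more of the Y-linked transcripts, with Uty at 1712 and 670 counts and 2.02-fold (1.85 to 2.21) higher. Xist, which overlaps Tsix, had 56279 and 63064 counts, with the colon 1.42-fold (1.40 to 1.43) above the caecum. Both libraries thus held Xist and Y-linked transcripts, in different proportions, and the part of this in the other differences was not tested.

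Of the 17900 genes compared, 914 (5.11%) were higher in the caecum and 490 (2.74%) in the colon by 2-fold or more, which puts 1404 (7.84%) apart. These shares are the background over all genes, whatever their level, and a gene is called higher only at 2-fold or more. Most of the genes that were apart were of low level, measured per gene length as RPKM, which divides reads by gene length and library depth. Under 1 RPKM in the higher library, 15.3% of 3291 genes were higher in the caecum and 8.45% higher in the colon. From 1 to 10 RPKM the shares were 4.62% and 2.27% of 7664 genes. Between 10 and 100 RPKM the shares were 0.937% and 0.614% of 6189 genes, and none of the 756 genes at 100 RPKM or more was apart. The lists below differ in level, and their shares were not matched for it.

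**Figure D1:**
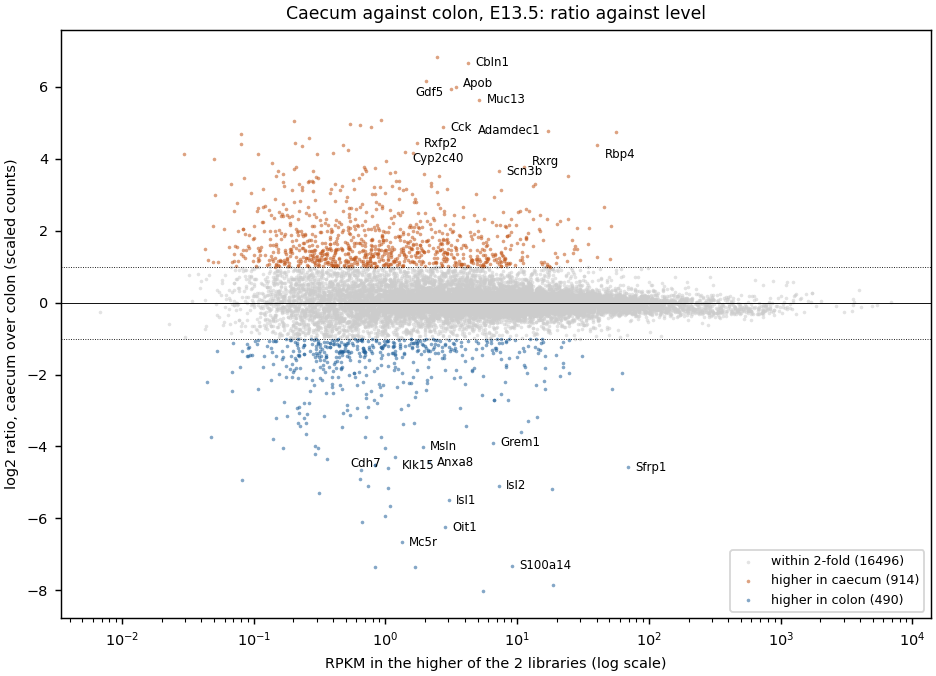
Each point is 1 of the 17900 genes, placed by its RPKM in the higher of both libraries (log scale) and by the log2 ratio of scaled counts, caecum over colon. Dotted lines mark 2-fold, names mark leading genes at 1 RPKM or more, and the spread narrows toward abundant genes.

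Among 4 groups of lists, genes of the neural one were most often apart. Of 118 compared, 44 were higher in the caecum and 5 in the colon, and their median was 0.75 in log2. Of 149 epithelial genes, 27 were higher in the caecum and 17 in the colon, with a median of 0.06. Of 94 signalling genes the numbers were 18 and 11, with a median of 0.05. Of 166 mesenchymal genes they were 14 and 16, with a median of -0.10, so this group was nearly even. A list's share is a description of these 2 libraries.

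**Figure D2:**
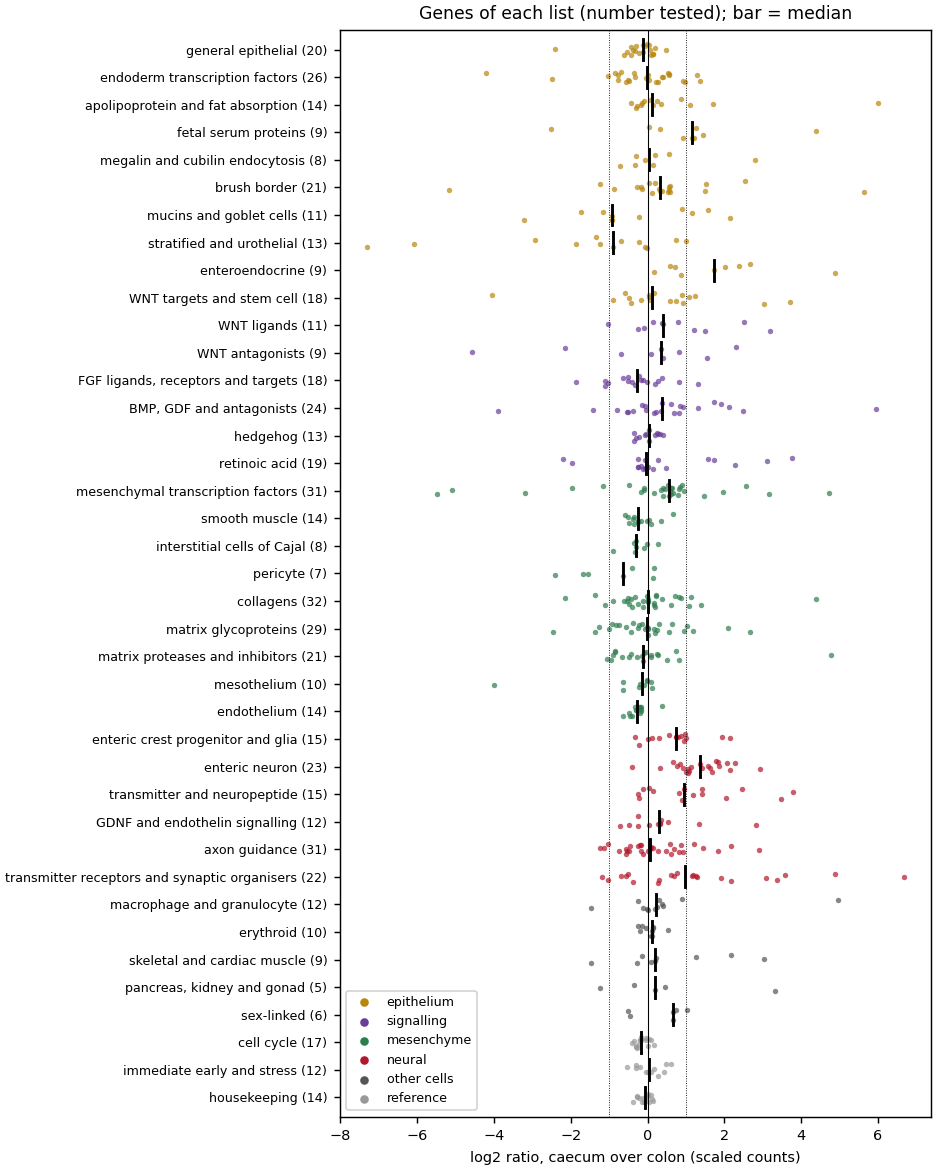
Each point is the log2 ratio of scaled counts, caecum over colon, of 1 gene, in rows by list with the number of genes compared in brackets, and bars mark medians. The enteric neuron and enteroendocrine lists lie to the caecum side, at medians of 1.37 and 1.72. The stratified and urothelial list and the mucin and goblet list lie to the colon side, at -0.89 and -0.92. The smooth muscle and endothelial lists lie slightly to the colon side, at -0.25 and -0.26. Of the reference lists, cell cycle lies at -0.18, and housekeeping and stress lie close to 0.

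The enteric neuron list showed the broadest shift. Of its 23 genes, all of them compared, 17 were higher in the caecum and 0 in the colon, with a median of 1.37 in log2. Tlx2, a homeobox gene of enteric neurons, had 678 counts in the caecum, 70 in the colon and 925 in the ileum, with the caecum 7.66-fold (5.98 to 9.95) above the colon. Dcx, a microtubule protein of young neurons, had 4026, 656 and 2306 counts, 4.86-fold (4.47 to 5.28) higher. Prph, an intermediate filament of peripheral neurons, had 1186, 212 and 1114 counts, 4.43-fold (3.82 to 5.15) higher. In each of these 3 genes the colon was the lowest of the 3 libraries. The same held for Tubb3, the neuronal tubulin, at 27.3, 9.16 and 21.3 RPKM in the caecum, colon and ileum, which favoured the caecum by 2.99-fold (2.77 to 3.23). Stmn2, another microtubule protein of growing axons, stood at 34.4, 11.2 and 26.0 RPKM, 3.09-fold (2.89 to 3.31) higher. The vesicle genes Snap25 and Syt1 favoured the caecum by 4.2-fold (3.27 to 5.48) and 3.62-fold (3.29 to 3.99). Members within 2-fold included Gap43, a growth cone protein, at 1.90-fold (1.80 to 2.01) on the caecum side, the transcription factors Phox2a and Hand2 at 1.80-fold and 1.25-fold, and Ncam1, a cell adhesion molecule also found outside neurons, at 1.32-fold on the colon side. In bulk tissue, fewer cells of a type and less RNA per cell cannot be told apart. Summed over the list, the neuron genes reached 284 RPKM in the caecum, 132.1 in the colon and 262.3 in the ileum.

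Progenitor and glial genes of the neural crest lineage shifted less than the neuronal ones. Of 15 compared, 2 were higher in the caecum and 0 in the colon, with a median of 0.73. Ret, the receptor for GDNF on crest progenitors, had 13564 and 8756 counts in the caecum and colon, a ratio of 1.23 (1.19 to 1.26), and Erbb3, a neuregulin receptor, had a ratio of 1.09. Sox10, a transcription factor of the migrating crest, was 1.84-fold toward the caecum, just within 2-fold. Fabp7, a fatty acid binding protein of glial precursors, had 595, 106 and 840 counts in the caecum, colon and ileum, with the caecum 4.44-fold (3.61 to 5.51) above the colon. The gene for the receptor Ednrb, the partner of the endothelin Edn3 in crest migration, stood at 64.0, 38.7 and 77.8 RPKM, a ratio of 1.66 (1.61 to 1.70) between caecum and colon. Among GDNF and endothelin signals, Gdnf itself leaned to the colon by 1.66-fold and Edn3 to the caecum by 1.22-fold, and neither was 2-fold apart. The receptor genes Gfra2 and Gfra3 favoured the caecum by 2.53-fold (2.28 to 2.81) and 7.12-fold (3.07 to 20.3), the latter on 54 and 6 counts.

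**Figure D3:**
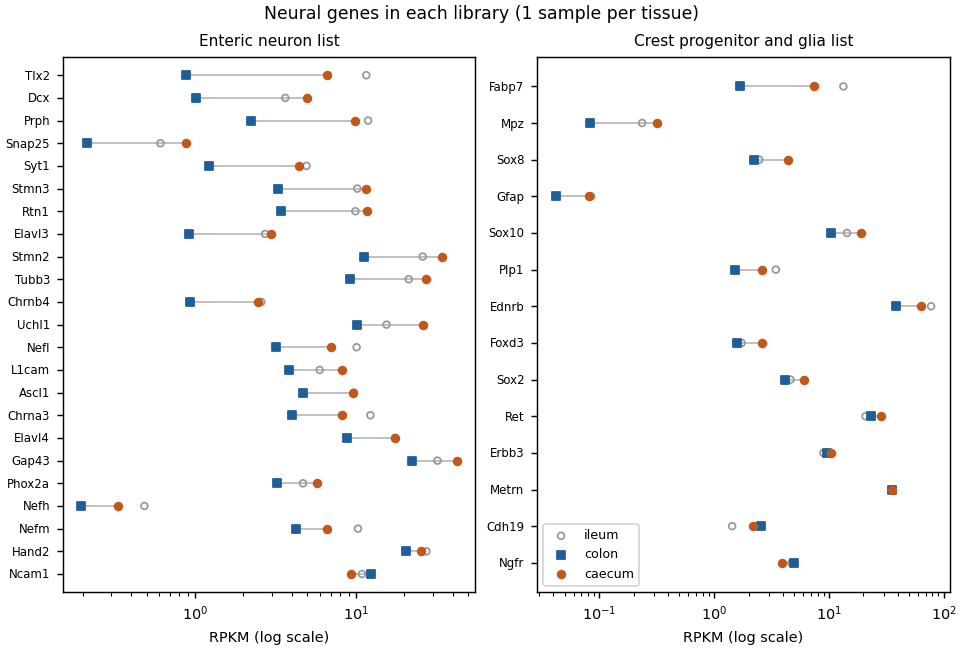
RPKM (log scale) of genes compared in the enteric neuron list and in the crest progenitor and glia list, in the caecum, colon and ileum libraries, ordered by the ratio of caecum to colon. In the neuron list the caecum point lies to the right of the colon point for 22 of 23 genes, and the exception is Ncam1.

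Transmitter genes followed the neuronal ones. Of 15 compared, 7 were higher in the caecum and 0 in the colon, with a median of 0.95. The enzyme genes Th, for catecholamines, and Chat, for acetylcholine, had 104 and 56 counts in the caecum and 6 and 4 in the colon, and were 13.7-fold (6.09 to 38.2) and 11.1-fold (4.09 to 42.1) higher. Nos1, which makes nitric oxide, had 1202, 356 and 148 counts in the caecum, colon and ileum, with the caecum 2.67-fold (2.37 to 3.01) above the colon. The peptide genes Cartpt and Penk stood at 14.6 and 5.18 RPKM in the caecum and 3.57 and 1.95 in the colon. Vip and Gal, other peptide genes, differed by only 1.08-fold and 1.19-fold, both on the colon side. Tac1 and Npy fell under the minimum of 20 counts, with 4 and 16 counts in the caecum.

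Receptor and synapse genes reached the largest neural ratios. Of 22 compared, 11 were higher in the caecum and 2 in the colon, with a median of 0.97. Cbln1, a synaptic organiser of the C1q family, is listed under 2 overlapping identifiers, and the one described had 642 counts in the caecum, 5 in the colon and 7 in the ileum. Cbln2, its relative, had 1605, 282 and 2066 counts, with the caecum 4.50-fold (3.96 to 5.13) above the colon, so that the ileum lay nearer to the caecum for Cbln2 and to the colon for Cbln1. Cbln4 went the other way, on 20 and 36 counts. Nlgn1, a postsynaptic adhesion molecule, favoured the caecum by 8.43-fold (6.53 to 11.1), and Adra2a, an adrenergic receptor, did so by 11.9-fold (8.31 to 17.6) on 481 and 32 counts. Chrm2, the muscarinic receptor found on smooth muscle, leaned to the colon by 1.41-fold.

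Axon guidance genes were divided, with 5 of 31 higher in the caecum and 3 in the colon and a median of 0.06. Ntn1, a netrin and secreted guidance cue, stood at 8.32, 2.33 and 8.21 RPKM in the caecum, colon and ileum, with the caecum 3.58-fold (3.30 to 3.88) above the colon. Its receptor gene Dcc favoured the caecum by 2.74-fold (2.06 to 3.68), while Unc5c, for another netrin receptor, favoured the colon by 2.19-fold (2.09 to 2.30). Epha5, an ephrin receptor, favoured the caecum by 7.39-fold (5.93 to 9.31), and its relative Epha3 favoured the colon by 2.35-fold (2.10 to 2.63).

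General epithelial genes were close to even, while each of the other 9 epithelial lists also held genes that were apart. Of 20 general epithelial genes, 0 were higher in the caecum and 1 in the colon, with a median of -0.13. The junction genes Cdh1 and Epcam were 1.52-fold toward the colon and 1.07-fold toward the caecum. The exception was Lgals4, a galectin of the intestinal lining, at 9.89 RPKM in the caecum, 52.4 in the colon and 21.8 in the ileum, which favoured the colon by 5.28-fold (4.99 to 5.59). The regional factors of the intestinal endoderm differed in part. Cdx2 had 2736, 1133 and 1978 counts and leaned to the caecum by 1.91-fold (1.78 to 2.05), while its relative Cdx1, with 34, 151 and 176 counts, favoured the colon by 5.61-fold (3.85 to 8.40). Hnf4a leaned to the colon by 1.79-fold. Maf and Onecut2 favoured the caecum by 2.57-fold (2.40 to 2.76) and 2.45-fold (2.13 to 2.83), and Foxa2 favoured the colon by 2.05-fold (1.75 to 2.41).

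Genes of absorption and of serum proteins divided gene by gene. Apob, the structural protein of chylomicrons, had 3062 counts in the caecum, 38 in the colon and 3414 in the ileum, and lies on chromosome 12, 7984454 to 8023641 in mm9. Mttp, which loads lipid onto it, and Apoe differed by 1.05-fold and 1.81-fold, and of 14 genes of this list 3 were higher in the caecum, the others being Apoa1 and Mogat2. Of 9 serum protein genes 5 were higher in the caecum and 1 in the colon, with a median of 1.16. Rbp4, the retinol carrier, stood at 40.6, 1.96 and 7.24 RPKM in the caecum, colon and ileum, and Trf, transferrin, at 23.7, 10.7 and 9.08. Afp, also a fetal serum protein, did not follow, at 23.4 and 22.7 RPKM in the caecum and colon. Cubn, an endocytic receptor, favoured the caecum by 6.91-fold (5.82 to 8.25), while Lrp2 (megalin), its partner, leaned to the colon by 1.65-fold.

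Among 21 brush border genes, 4 were higher in the caecum and 2 in the colon, with a median of 0.32. Muc13, a membrane mucin of the intestinal surface, had 1010, 16 and 1518 counts in the caecum, colon and ileum. Slc15a1, a peptide transporter, favoured the caecum by 5.80-fold (2.46 to 16.7) on 44 and 6 counts, and Espn and Cdhr5, which build microvilli, were 2.86-fold (2.48 to 3.31) and 2.82-fold (2.32 to 3.46) higher. Vil1 and Ezr, general microvillus proteins, differed by 1.24-fold and 1.21-fold in opposite directions. The peptidase gene Enpep favoured the colon by 2.34-fold (2.21 to 2.48). Goblet genes were sparse in both libraries, and 3 of 11 were higher on each side. Their median was -0.92 in log2, as 7 of the 11 ratios lay on the colon side. Spdef and Tff3 had 116 and 90 counts in the caecum and 31 and 16 in the colon. The genes higher in the colon were Agr2, with 10 and 26 counts, Muc4, with 30 and 53, and Clca3, with 0 and 22.

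Enteroendocrine cells are the hormone cells of the gut epithelium. Of 9 genes of their list that reached 20 counts, 5 were higher in the caecum and 0 in the colon, with a median of 1.72, and the other 12 listed did not reach the minimum. Cck, the cholecystokinin gene, had 148 counts in the caecum, 4 in the colon and 25 in the ileum. Sct, the secretin gene, had 132, 20 and 56 counts, with the caecum 5.22-fold (3.25 to 8.83) above the colon. The transcription factor gene Rfx6, of endocrine precursors, had 216, 42 and 239 counts, 4.07-fold (2.91 to 5.81) higher. Pcsk1, a prohormone convertase, had 24, 0 and 22 counts, at least 6.33-fold higher. Neurog3 and Neurod1, which define endocrine progenitors, were at 0 counts in the caecum and colon. Several genes of this list, Chgb and Insm1 among them, are also genes of neurons. The somatostatin gene Sst was at 0 counts in the caecum against 19 in the colon.

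The proximal promoters of 3 epithelial genes of the caecum side are shown because Apob and Muc13 had the largest ratios among epithelial genes higher in the caecum and Rfx6 held letters that were rare among promoters. Each runs from 250 bases before to 50 after the start given by RefSeq, on the plus strand of GRCm38.p6, a build other than that of the counts. Capitals mark a match on either strand to CAAAGTCCA (HNF4) in Muc13, to TATAAA in Apob and to GTTAAT, any base and ATT (HNF1) in Rfx6. They lie at chr16:33794239-33794538, chr12:7977427-7977726 and chr10:51685268-51685567.
Muc13: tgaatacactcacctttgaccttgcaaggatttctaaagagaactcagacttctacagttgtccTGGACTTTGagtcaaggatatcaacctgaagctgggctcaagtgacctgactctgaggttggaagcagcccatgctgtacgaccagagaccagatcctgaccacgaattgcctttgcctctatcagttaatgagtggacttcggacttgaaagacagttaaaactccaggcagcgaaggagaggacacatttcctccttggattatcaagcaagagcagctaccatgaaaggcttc
Apob: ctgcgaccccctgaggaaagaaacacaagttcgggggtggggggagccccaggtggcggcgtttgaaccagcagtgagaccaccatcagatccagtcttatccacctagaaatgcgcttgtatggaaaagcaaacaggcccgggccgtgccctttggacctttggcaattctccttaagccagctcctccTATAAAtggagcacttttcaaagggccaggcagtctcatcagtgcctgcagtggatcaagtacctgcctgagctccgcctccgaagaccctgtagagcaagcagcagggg
Rfx6: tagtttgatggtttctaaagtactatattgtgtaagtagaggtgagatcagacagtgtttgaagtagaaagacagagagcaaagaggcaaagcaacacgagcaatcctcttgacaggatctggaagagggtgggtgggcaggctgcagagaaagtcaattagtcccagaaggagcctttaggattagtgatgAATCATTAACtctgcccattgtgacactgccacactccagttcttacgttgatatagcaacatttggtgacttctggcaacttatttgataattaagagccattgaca
Of the 27 epithelial genes of the caecum side, 19 had at least 1 promoter in the RefSeq table, as did 10 of the 17 of the colon side, with 23 and 14 promoters in all. A gene was counted if any of its promoters held the letters, and the shares beside it are of all 27025 genes of the table, counted the same way. The HNF4 and HNF1 letters were found for 1 gene of the caecum side each and 0 of the colon side, against 0.555% and 0.47% of all. TTTATG, the letters searched for CDX factors, was found for 5 of 19 and 4 of 10, against 13.6%, and TATAAA for 5 of 19 and 4 of 10, against 15.7%. Muc13 is counted for TTTATG by another of its promoters than the one shown. A match describes the letters of the window and is not a binding site.

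Of 13 genes of stratified and urothelial linings compared, 6 were higher in the colon, 0 in the caecum and 7 within 2-fold, with a median of -0.89. S100a14, a calcium binding protein of squamous epithelia, had 4 counts in the caecum, 501 in the colon and 10 in the ileum, and lies on chromosome 3, 90330778 to 90332755 in mm9. Krt15, a keratin of basal cells, had 56, 337 and 51 counts, with the colon 7.61-fold (5.72 to 10.3) above the caecum. Sfn and Perp, of stratified epithelia, were 3.67-fold (2.83 to 4.79) and 2.53-fold (1.98 to 3.24) higher, and the uroplakin gene Upk1a was 2.38-fold (2.03 to 2.80) higher. Several defining markers of these linings were near 0 in both libraries, but not the keratin gene Krt14. It had 64 counts in the caecum and 94 in the colon, 1.86-fold (1.34 to 2.59) toward the colon and within 2-fold. Trp63, the basal cell factor, had 4 counts in the caecum and 15 in the colon, Krt5 had 6 and 3, Krt13 had 1 and 0, and Upk2 and Upk3a had 5 or fewer. Krt7, Krt17 and Upk1b were among those within 2-fold, and Krt20 and Dsc3 leaned to the caecum, with 381 and 151 counts for Krt20, just under 2-fold, and 90 and 43 for Dsc3. Summed over all 25 members, the list reached 58.33 RPKM in the caecum, 98.39 in the colon and 56.97 in the ileum. Whether tissue next to the colon entered the colon sample was not tested.

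**Figure D4:**
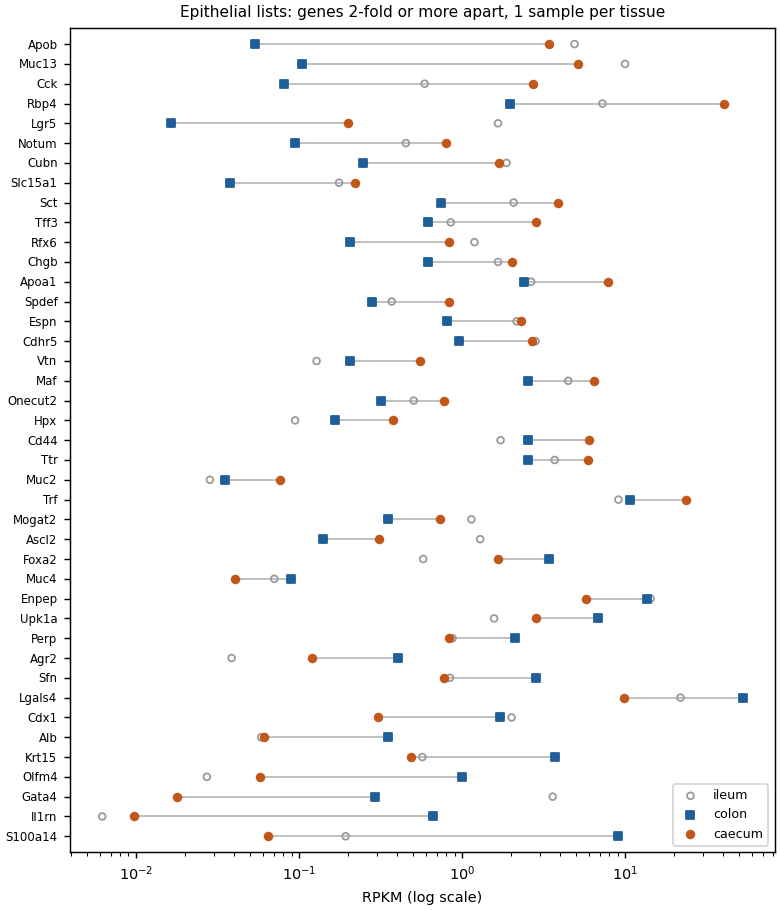
RPKM (log scale) in the caecum, colon and ileum libraries of the epithelial genes reported here that were 2-fold or more apart with counts in both tissues, ordered from Apob, highest toward the caecum, to S100a14, highest toward the colon. The ileum point lies near the caecum point for Apob and Muc13 and near neither for Gata4, which was highest in the ileum at 702 counts, against 4 in the caecum and 58 in the colon.

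WNT ligands and their R-spondin amplifiers were higher in the caecum for 4 of the 11 genes compared, and 1 was higher in the colon, with a median of 0.41. Wnt5a, the noncanonical ligand of gut mesenchyme, was the most abundant, at 50.4, 21.8 and 39.0 RPKM in the caecum, colon and ileum, with the caecum 2.32-fold (2.27 to 2.38) above the colon. Wnt16 had 512, 44 and 38 counts, 9.21-fold (6.76 to 12.8) higher. Rspo2 and Rspo3, which raise the response to WNT through LGR receptors, favoured the caecum by 5.64-fold (4.30 to 7.52) and 2.81-fold (2.45 to 3.24). In the ileum library Rspo2 was as low as in the colon, at 41 counts, while Rspo3 was higher than in the caecum, at 1659 against 950.

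Secreted WNT antagonists went both ways, with 2 of 9 higher on each side. Sfrp1 was the most abundant of the genes that led the colon side, at 2.92, 69.7 and 38.2 RPKM in the caecum, colon and ileum, and lies on chromosome 8, 24521974 to 24560104 in mm9. Frzb, of the same family, favoured the colon by 4.46-fold (3.55 to 5.64), but Sfrp2 leaned to the caecum by 1.76-fold. Dkk1 and Wif1, which are also secreted inhibitors of WNT, favoured the caecum by 4.94-fold (2.33 to 12.1) and 2.90-fold (1.62 to 5.53), on 50 and 55 counts there. Among 18 targets and stem cell genes, 4 were higher in the caecum and 1 in the colon, with a median of 0.12. Of these 18 ratios, 12 lay on the caecum side and 6 on the colon side, the latter including Myc at 1.36-fold and Znrf3 at 1.11-fold. The WNT targets Axin2 and Nkd1 leaned to the caecum by 1.89-fold and 1.51-fold. Notum, a WNT deacylase that is itself a target, was 8.17-fold (4.52 to 16.2) higher there, on 124 and 12 counts. Lgr5, the R-spondin receptor of intestinal stem cells, had 133, 8 and 855 counts in the caecum, colon and ileum, with the caecum 13.2-fold (6.48 to 31.1) above the colon. Olfm4, another stem cell marker of the intestine, ran the other way with 10, 131 and 4 counts, with the colon 16.6-fold (8.72 to 35.3) above the caecum.

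BMP and GDF genes and their antagonists were higher in the caecum in 6 of 24 cases and in the colon in 2, with a median of 0.36. Gdf5, a ligand known from joint formation, had 466 counts in the caecum, 6 in the colon and 4 in the ileum. Gdf10 was the most abundant ligand among those apart, at 26.1, 7.90 and 1.14 RPKM, with the caecum 3.31-fold (3.13 to 3.50) above the colon. Bmp3 favoured the caecum by 5.63-fold (4.18 to 7.73), while Gdf6 favoured the colon by 2.67-fold (2.13 to 3.35). The antagonists divided as well. Fst, which binds activins, stood at 51.2, 11.7 and 18.5 RPKM, with the caecum 4.38-fold (4.15 to 4.62) above the colon. Nog and Bmper were 2.49-fold (1.88 to 3.34) and 3.73-fold (3.12 to 4.47) higher there, and Grem1, at 118, 1385 and 948 counts, favoured the colon by 14.8-fold (12.3 to 18.1). The ligand genes Bmp4 and Bmp2 differed by 1.54-fold and 1.03-fold, and the BMP target Id1 leaned to the caecum by 1.80-fold.

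FGF genes tended to the colon, with 4 of 18 higher there and 1 in the caecum, and a median of -0.28. Fgf10 had 2162 counts in the caecum, 3663 in the colon and 124 in the ileum, with the colon 2.14-fold (2.03 to 2.26) above the caecum. Etv4, a transcription factor induced by FGF signals, followed it at 1511, 2430 and 278 counts and 2.03-fold (1.91 to 2.17). Etv5, its relative, leaned to the caecum by 1.29-fold, and Fgf9, the epithelial ligand, leaned to the colon by 1.44-fold. Fgf13, an FGF-like protein that stays inside neurons, was the gene higher in the caecum, at 2.47-fold (2.22 to 2.75). None of 13 hedgehog genes was apart, and their median was 0.03. Ptch1, receptor and target of the pathway, stood at 47.2 and 46.5 RPKM in the caecum and colon, and the ligand genes Shh and Ihh differed by 1.25-fold and 1.31-fold.

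Retinoic acid genes went both ways. Of 19 compared, 5 were higher in the caecum and 2 in the colon. Higher in the colon was the synthesis gene Aldh1a1, at 15.7, 61.9 and 120.0 RPKM in the caecum, colon and ileum. Aldh1a7, its close paralogue, stood at 3.47, 15.9 and 19.2 RPKM. They favoured the colon by 3.91-fold (3.72 to 4.11) and 4.56-fold (4.11 to 5.07), and reads shared by the pair cannot be told apart. Aldh1a2, the main synthesis gene of embryonic mesenchyme, differed by 1.19-fold. On the caecum side stood the binding protein genes Crabp1 and Crabp2, at 3.33-fold (2.84 to 3.92) and 4.83-fold (4.27 to 5.49), and Cyp26a1, for the degrading enzyme, at 8.70-fold (5.03 to 16.3) on 154 and 14 counts. The receptor gene Rxrg had 1674, 97 and 14 counts in the caecum, colon and ileum, so that the caecum stood above both neighbours, while Rara, Rarg, Rxra and Rxrb differed by 1.11-fold or less.

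Mesenchymal transcription factors had the widest range of the mesenchymal lists. Of 31 compared, 5 were higher in each tissue, and the median was 0.56. Osr2 and Eya1 favoured the caecum by 3.88-fold (3.12 to 4.87) and 2.77-fold (2.47 to 3.10). Tbx20 had 34, 0 and 11 counts, at least 8.97-fold higher there. Isl1 and Isl2, LIM homeobox genes also found in motor and sensory neurons, had 11 and 30 counts in the caecum and 390 and 810 in the colon. Nkx3-2, a factor of gut mesenchyme and cartilage, had 198, 1432 and 279 counts, with the colon 9.14-fold (7.87 to 10.7) above the caecum. Six2 had 414, 1274 and 2 counts, with the colon 3.89-fold (3.48 to 4.36) above the caecum. The general factors Foxf1a, Foxf2 and Prrx1 differed by 1.07-fold, 1.07-fold and 1.12-fold.

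The contractile and vascular genes of the wall leaned slightly to the colon, each within 2-fold. None of 14 smooth muscle genes, 8 genes of the interstitial cells of Cajal (the pacemaker cells of the gut) and 14 endothelial genes was 2-fold apart. The medians were -0.25, -0.30 and -0.26, and 10, 7 and 13 of these genes had ratios on the colon side. The cell cycle reference list leaned the same way, with a median of -0.18 and 13 of 17 ratios on the colon side. Acta2, smooth muscle actin, stood at 167, 252 and 379 RPKM in the caecum, colon and ileum, a ratio of 1.5 (1.47 to 1.53) toward the colon. Kit, the receptor of Cajal cells, was 1.87-fold (1.83 to 1.92) toward the colon and Pecam1, of endothelium, 1.13-fold. The pericyte list went further, with 3 of 7 higher in the colon, 0 in the caecum and a median of -0.65. Rgs5 had 899, 3772 and 4424 counts, with the colon 5.30-fold (4.93 to 5.71) above the caecum. The channel genes Abcc9 and Kcnj8, which encode parts of the same potassium channel, were 3.22-fold (3.09 to 3.35) and 2.95-fold (2.60 to 3.35) higher, while Pdgfrb and Cspg4, other pericyte markers, were within 2-fold on opposite sides. In the mesothelial list Msln, at 16, 204 and 24 counts, was the only gene of 10 that was apart.

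Matrix genes were close to even, apart from a few chains. Of 32 collagens, 4 were higher in the caecum and 3 in the colon and the rest within 2-fold. The fibrillar chain Col3a1 stood at 268 and 292 RPKM. Col19a1 had 210, 8 and 4 counts in the caecum, colon and ileum. Col4a6, a basement membrane chain, favoured the caecum by 2.63-fold (2.46 to 2.81). Col9a1 and Col9a2, chains of the same collagen, ran opposite ways, at 2.18-fold (2.07 to 2.29) in the colon and 2.20-fold (2.05 to 2.35) in the caecum. Of 29 matrix glycoproteins 4 were higher in the caecum and 3 in the colon. The small proteoglycan genes Lum and Dcn stood at 45.8 and 29.7 RPKM in the caecum and 7.21 and 13.1 in the colon, and favoured the caecum by 6.37-fold (5.91 to 6.88) and 2.27-fold (2.13 to 2.42). Fmod, of the same family, favoured the colon by 2.40-fold (2.18 to 2.66). Of 21 proteases and inhibitors, Adamdec1, at 2673, 77 and 4156 counts, was the gene higher in the caecum and Adamts1, at 2.07-fold (1.94 to 2.20), the gene higher in the colon.

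**Figure D5:**
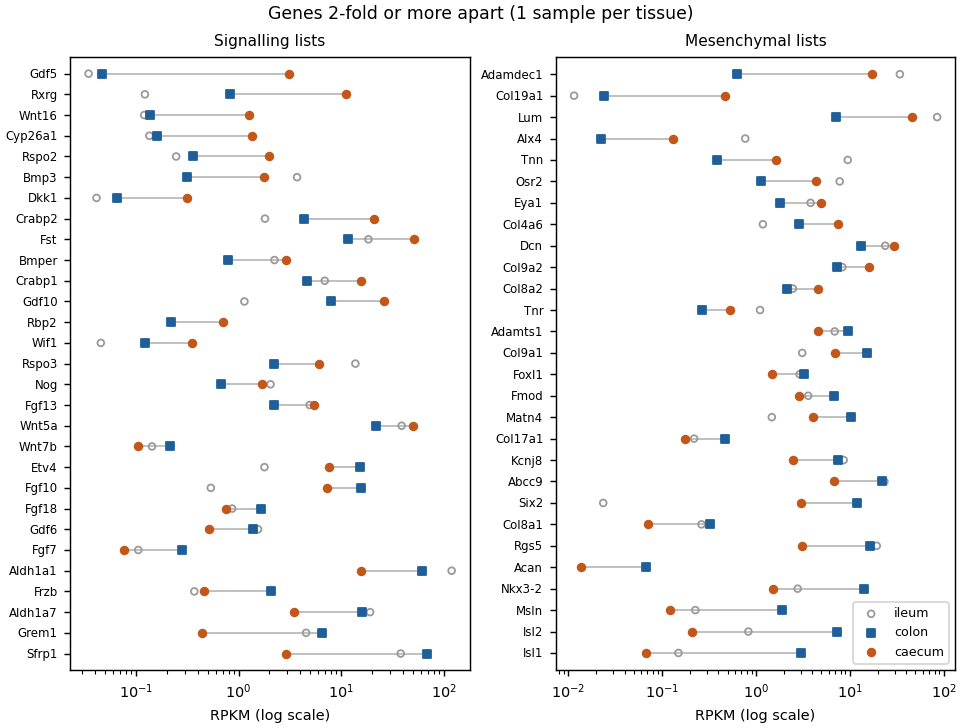
RPKM (log scale) in the caecum, colon and ileum libraries of the signalling genes (left) and mesenchymal genes (right) reported here that were 2-fold or more apart with counts in both tissues, ordered by the ratio of caecum to colon. Lum on the caecum side, at 45.8 RPKM there, and Sfrp1 and Aldh1a1 on the colon side, at 69.7 and 61.9, are among the most abundant.

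Of 42 genes in the lists of other cells, 6 were higher in the caecum and 3 in the colon, with a median of 0.14. None of 10 erythroid genes was apart, and the macrophage receptor Csf1r stood at 4.24 RPKM in each library. Mpo, a granulocyte enzyme, had 118 counts in the caecum, 0 in the colon and 8 in the ileum, while Elane, S100a8 and S100a9, other granulocyte genes, had 8 counts or fewer in each and Prtn3 had 184 and 78 in the caecum and colon, within 2-fold. Of 12 macrophage and granulocyte genes, Mpo was the one higher in the caecum and Lyz2, a lysozyme with 166 and 363 counts, the one higher in the colon. Of 9 genes of skeletal and cardiac muscle, 3 were higher in the caecum and 1, Tnnt3, in the colon. Myl1 and Myh3, of striated muscle, had 114 and 74 counts in the caecum and 11 and 13 in the colon, but Myod1, Myog and Myf5, which define skeletal muscle, had 2 counts or fewer. Ptf1a, Prss1 and Ins2, of the pancreas, were at 0 in both libraries.

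Genes outside the lists also led each side. Scn3b, a sodium channel subunit of neurons, had 2146, 134 and 822 counts in the caecum, colon and ileum, with the caecum 12.7-fold (10.6 to 15.2) above the colon. Rxfp2, a receptor of the relaxin family, had 632, 23 and 12 counts. Cyp2c40, a cytochrome P450, had 186, 8 and 207 counts, with the caecum 18.4-fold (9.14 to 43.2) above the colon, and its reads may be shared with its paralogues. On the colon side stood Cdh7, a cadherin, at 24, 464 and 40 counts and 24.4-fold (16.2 to 38.5), and Gpr83, a receptor, at 7, 166 and 16 counts and 30.0-fold (14.2 to 75.7). Anxa8, an annexin, had 12, 206 and 2 counts, with the colon 21.7-fold (12.2 to 42.7) above the caecum. Klk15, a kallikrein protease, had 46 counts in the colon against 0 in the caecum and ileum, a fold of at least 19.4.

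Neighbouring genes were at times apart in the same direction. At least 3 compared features in a row were higher in the same tissue in 28 places, 16 on the caecum side and 12 on the colon side. They held 102 features in all, Hox genes included. Several runs hold features that overlap, such as Nr2f1 with A830082K12Rik and Gm8327, or the repeated entry of Alx1. Their reads were not told apart, so such runs may hold fewer separate genes than features. Some runs are genes of related function. The nicotinic receptor genes Chrna5, Chrna3 and Chrnb4, on chromosome 9 from 54828687 to 54896351, had caecum-to-colon ratios of 2.14 (1.85 to 2.49), 2.07 (1.89 to 2.28) and 2.65 (2.22 to 3.18). Dlx1 and Dlx2, homeobox genes of neurons among other tissues, lie on chromosome 2 from 71366170 to 71384811 and favoured the caecum by 4.34-fold (3.95 to 4.78) and 2.74-fold (2.26 to 3.34). Dlx1as overlaps Dlx1 on the other strand, so its reads were not told apart.

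Other runs were of metabolic or barrier genes. Rbp4 lies on chromosome 19 between O3far1, a fatty acid receptor with 158 and 29 counts in the caecum and colon, and Pde6c, a phosphodiesterase with 108 and 8, and all 3 were higher in the caecum. Anxa1, an annexin on chromosome 19 next to Aldh1a1 and Aldh1a7, had 1062 and 3294 counts, with the colon 3.92-fold (3.66 to 4.21) above the caecum. Cd55 and Daf2, paralogues on chromosome 1 that encode decay accelerating factors of complement, favoured the colon by 4.89-fold (4.54 to 5.27) and 5.99-fold (4.80 to 7.52). The run of Lor, Sprr2a1, Sprr2a2 and Sprr2a3, cornified envelope genes on chromosome 3, had 119 counts or fewer per gene in the colon and 6 or fewer in the caecum. The 3 Sprr2a features overlap, as do the 8 Ugt1a features of a run on chromosome 1, so their reads were not told apart and each run may rest on fewer transcripts than features.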

How the data were processed

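RNA from 1 caecum, 1 colon and 1 ileum sample was sequenced as paired reads of 100 bp, per the labels' protocols. Bowtie 0.12.7, DESeq and the mm9 genome are named in the submitters' processing notes, without their roles. The deposited values are expected counts, with fractions of 0.5 in places, and RPKM, which the authors scaled to length and depth, per the file headers. How reads were counted, and whether by strand, is not given in the sources used here. Both columns of a tissue were averaged and rounded to whole counts. Libraries were scaled by TMM (edgeR 4.0.16, R 4.3.3). Intervals are Clopper-Pearson intervals of the conditional binomial (scipy 1.17.1). Reads are not independent molecules, so they cover counting error only. A gene was compared at 20 counts or more in the higher library and called at 2-fold. A count of 0 was set to a floor of 3 counts, and folds against it are given as at least that value. No fold was taken where both counts were at or under the floor.

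The comparison, the 39 gene lists and the naming rule were chosen with earlier results of these data known. Of 738 entries 736 were matched by symbol and 1 by identifier, Slc18a3 was not matched, and 612 were compared. The rule names 15 genes per side by the interval bound nearest to no difference, without Hox, Evx, predicted, ribosomal, histone and mitochondrial genes. From each list it takes up to 6 genes per direction and the 3 most abundant. Members within 2-fold that fall outside this rule, members below the minimum and genes of runs were named after their values were seen. Some genes that the rule names are in the counts and medians but are not reported here or named in the plots. The steps were tested on simulated data. Alternatives were DESeq2 1.42.0 size factors, total counts, other minimums and thresholds, single columns and RPKM ratios. Coordinates are mm9, counted from 1. Promoters are from RefSeq (GRCm38.p6).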

Additional observations from a re-analysis of the deposited data

How the results depend on the processing

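No paired analysis was possible because each tissue has 1 sample, and for the same reason no sample could be left out. With DESeq2 size factors, with total counts alone and with either column alone, each of the 12 main counts stayed within 1.5 times its value. Without a count minimum, 1367 genes were higher in the caecum and 1148 in the colon, against 914 and 490, and the runs of neighbours rose from 28 to 45, because genes of few counts enter. With a minimum of 100 counts the numbers were 563 and 241, neural genes higher in the colon went from 5 to 3, and 10 runs were found. With RPKM ratios and a pseudocount of 0.1, 3 neural genes were higher in the colon and 18 runs were found. At 4-fold, 256 genes were higher in the caecum and 129 in the colon. With intervals wholly beyond 2-fold, 512 and 229 were. Of 1733 values of single genes under the alternatives, 47 moved beyond their counting interval, 46 of them under the RPKM pseudocount, and 0 changed direction. Most alternatives alter the ratio of a gene little or not at all, so the last number was largely set in advance. List counts moved by over 1.5 times in 34 of 546 cases. Without replicates, the spread between embryos is unknown, and below 1 RPKM many folds rest on few counts.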

Other observations

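Ion channel and receptor families, some of whose genes are also in the lists, were counted after their values were seen, and are given as values. Counts here and in the next paragraph are to be read against 5.11% and 2.74% of all genes, higher in the caecum and colon. Of 7 voltage-gated sodium channel genes compared, 3 were higher in the caecum and 0 in the colon, namely Scn3b, Scn3a and Scn9a. Scn3a had 2100 counts in the caecum, 270 in the colon and 448 in the ileum, with the caecum 6.15-fold (5.42 to 7.01) above the colon. Of 11 subunit genes of the GABA-A receptor, 8 were higher in the caecum and 0 in the colon, with a median of 1.30 in log2. Gabrb2 had 1019 counts in the caecum, 100 in the colon and 284 in the ileum, 8.06-fold higher in the caecum. Of 19 calcium channel subunit genes 5 were higher in the caecum and 0 in the colon. Potassium channel genes were on both sides, with 12 of 67 higher in the caecum and 9 in the colon. Most of those apart were under 1 RPKM, where 15.3% and 8.45% of all genes compared were higher in the caecum and colon. Kcnk10, counted for the caecum at 2.06-fold, had an interval from 0.96 to 4.78. Kcnn4, a channel of epithelia and blood cells, favoured the colon by 10.1-fold (3.59 to 39.4) on 4 and 32 counts. Among 36 kinesins the 3 that were apart, Kif1a, Kif5a and Kif5c, are motors of axonal transport and were higher in the caecum. All 3 distal-less genes compared were higher in the caecum, with Dlx5 at 85, 2 and 25 counts.

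Families of epithelia and metabolism were also counted after their values were seen, and are given as values. Of 8 kallikreins 5 were higher in the colon and 1, Klk6, in the caecum. Klk10 had 14, 113 and 14 counts in the caecum, colon and ileum, with the colon 10.2-fold (5.84 to 19.3) above the caecum. Klk10, Klk12, Klk13 and Klk14, all higher in the colon, overlap the feature 2310002F09Rik on the other strand. Their reads were not told apart from those of that feature, so these genes may not count separately. Of 15 claudins, which form tight junctions, 3 were higher in the caecum and 0 in the colon. Cldn2, which forms a pore for cations, had 238, 37 and 194 counts, with the caecum 5.09-fold (3.59 to 7.4) above the colon. Of 266 solute carriers 23 were higher in the caecum and 5 in the colon, shares to be read against 5.11% and 2.74% of all genes. Most of those apart were under 1 RPKM, where 15.3% and 8.45% of all genes compared were higher in the caecum and colon. Slc24a3, a sodium and calcium exchanger, was the most abundant of them, at 12.3, 2.11 and 7.26 RPKM. Slc14a1, a urea transporter, had 212, 18 and 16 counts, with the caecum 9.32-fold above the colon, while Slc5a8, a transporter of short-chain fatty acids, had 10, 68 and 4, with the colon 8.60-fold (4.40 to 18.7) above the caecum.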
